A study of Mus musculus with 21 samples.

Results

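A mouse embryonic stem cell (mESC) line without PDS5A and another without PDS5B were set directly against each other. The members are the 3 Pds5a-KO siGLO and the 3 Pds5b-KO siGLO libraries, 6 of the 21 libraries of the series, chosen by their labels, and no wild-type library entered the test. Pds5a-KO and Pds5b-KO are knockouts made by CRISPR in v6.5 mESCs, a male line, and each genotype is represented by replicates of 1 clone. All 6 cultures had received the same non-targeting control RNA (siGLO, 50 nM) and were taken after 48 h, so that genotype was the labelled difference between them. Because each genotype is 1 clone, what belongs to the lost gene and what belongs to the clone cannot be told apart here, and p-values measure the spread between the libraries of these clones.

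The study measured poly(A) RNA in wild-type (WT), Pds5a-KO and Pds5b-KO mESCs, with siRNAs against Pds5b, Stag1 or Stag2 in some of the cultures. Of the other libraries, 3 of WT siGLO serve below as a reference range and 9 of Pds5a-KO with other siRNAs as a view of the same clone, and none entered the test behind the calls reported here. PDS5A and PDS5B are the vertebrate forms of a HEAT-repeat protein that binds the cohesin ring, which holds sister chromatids together and extrudes loops of chromatin. They act with WAPL to release cohesin from DNA, help to keep it acetylated for sister cohesion, and take part in stopping loop extrusion at CTCF sites. The direct contrast asks where the RNA of cells left with PDS5B alone differed from that of cells left with PDS5A alone.

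The 6 libraries held between 19187351 and 21360847 counted reads each, and 17044 to 17259 genes were detected per library. Values below are normalized counts, which are read counts scaled to a common library size, and log2 fold changes are Pds5a-KO minus Pds5b-KO, so that a positive value is higher in Pds5a-KO. A gene is called where edgeR's quasi-likelihood test gave a Benjamini-Hochberg adjusted p under 0.01. Of 14122 tested genes, 1810 were called (12.8%), of which 796 (5.64% of the tested genes) were higher in Pds5a-KO and 1014 (7.18%) were higher in Pds5b-KO. The libraries of the lines did not overlap for 5948 of the tested genes (42.1%), the 1810 called genes among them. Most of the called differences were modest: their median size was 0.7 on the log2 scale, and 491 called genes differed by at least 1 (282 higher in Pds5a-KO, 209 higher in Pds5b-KO).

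The first principal component carried 59.5% of the variance and separated the lines, with Pds5a-KO at -20.54, -35.27 and -32.68 and Pds5b-KO at 38.04, 27.28 and 23.16. Pds5a-KO replicate 1 stood apart from its group on the second component (17.3% of the variance), at 29.9 against -6.331 and -13.96. Leaving it out raised the number of called genes to 2425, while leaving out Pds5a-KO replicate 2 or Pds5b-KO replicate 2 lowered it to 889 and 890. Counts without a library are given beside the gene groups that it moved by more than 1.5 times.

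The targeted genes come first because they check the labels. The guides named in the study match exons of both genes on chromosome 5 of GRCm38, all on the plus strand, and they are shown here because they define the lines. Capitals mark the adjacent NGG motif (PAM) that Cas9 needs. Both Pds5a guides lie in coding sequence of exon 2 of 32 of Pds5a-201 (chr5:65696769-65696788 and chr5:65696843-65696862), a gene read from the minus strand. Both Pds5b guides lie in coding sequence of exon 3 of 35 of Pds5b-201 (chr5:150719930-150719949 and chr5:150720005-150720024), a gene read from the plus strand.
Pds5a sgRNA 1: acgtttgatcatttcatcggTGG
Pds5a sgRNA 2: ccgcactcacgacgccacagAGG
Pds5b sgRNA 1: tgataaagatgttcgtttacTGG
Pds5b sgRNA 2: cacgtctcccgataaactaaAGG

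Pds5b (chr5:150673713-150810669) had normalized counts of 2641, 2076 and 2435 in Pds5a-KO and of 282, 318 and 242 in Pds5b-KO. The libraries labelled Pds5b-KO were thus all far below the others, by 3.09 ± 0.12 (log2 ± SE, edgeR adjusted p = 2.83e-09), and the WT range of 2021 to 2375 lay among the Pds5a-KO values. An exact two-sided permutation test over the 20 arrangements of the 6 libraries gave p = 0.1, the smallest that 3 against 3 allows. Pds5a (chr5:65605719-65698236) had 4836, 3793 and 4280 in Pds5a-KO against 6401, 5465 and 5562 in Pds5b-KO, with WT at 4725 to 5302. The Pds5a transcript was therefore still abundant in the line labelled Pds5a-KO, lower than in Pds5b-KO (log2 difference -0.43 ± 0.10, edgeR adjusted p = 0.00749, exact permutation p = 0.1). That call was lost when transcript length was allowed for (-0.19, edgeR adjusted p = 0.11) and when 1 library was left out, except for Pds5a-KO replicate 1. The count over the whole gene thus does not by itself check the Pds5a-KO label. By western blot, the study detected no PDS5A protein in its Pds5a knockout cells.

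Among the other genes of the cohesin cycle, the loader genes Nipbl and Mau2 were called, while those of the mitotic ring did not pass the test. The meiotic genes Smc1b and Rec8 were called too. Of 17 other settings, Nipbl kept its call in 13, Mau2 in 15, Smc1b in 11 and Rec8 in 9. Of 17 tested genes of the core cohesin list, Pds5a and Pds5b included, 2 were higher in Pds5a-KO and 5 in Pds5b-KO (41.2%, against 12.8% of all tested genes), with a median of -0.12 beside 0.01 over all genes. The called count fell to 3 without Pds5a-KO replicate 2 or Pds5b-KO replicate 2, and to 4 without Pds5b-KO replicate 1. When transcript length was allowed for, 3 were higher in Pds5a-KO and 3 in Pds5b-KO. Nipbl, which loads cohesin onto DNA, had 2504, 2016 and 2527 in Pds5a-KO and 3787, 3389 and 3052 in Pds5b-KO (-0.54 ± 0.11, edgeR adjusted p = 0.00281). Every Pds5a-KO library was below every Pds5b-KO library, and WT, at 2522 to 2963, was nearer to Pds5a-KO. Mau2, the partner of NIPBL, and Ctcf, which stops loop extrusion, were higher in Pds5b-KO by 0.49 and 0.53 on the log2 scale. Both lie on chromosome 8, whose genes were higher in Pds5b-KO as a body. The meiotic subunits moved in opposite directions, Smc1b being higher in Pds5a-KO (0.71, adjusted p = 0.0058) and Rec8 higher in Pds5b-KO (-0.49, adjusted p = 0.0087). The ring subunits Smc1a (-0.08), Smc3 (-0.10) and Rad21 (-0.06), the acetyltransferases Esco1 (0.08) and Esco2 (0.28), Stag1 (-0.20), Stag2 (-0.31), Stag3 (-0.19), Cdca5 (-0.12) and Hdac8 (0.13) were not called.

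Chromosome 8 separated the lines more than any other autosome. Of its 751 tested genes, 363 were called (48.3%), 359 of them higher in Pds5b-KO and 4 higher in Pds5a-KO, and 90.5% of the tested genes had a negative log2 fold change, with a median of -0.49. On 19 chromosomes, all but 8 and Y, between 7.14% and 15.9% of the tested genes were called and the medians ran from -0.05 to 0.08. Against the WT mean, the median chromosome 8 gene stood at -0.18, -0.17 and -0.21 in the Pds5a-KO libraries and at 0.32 in each of the 3 Pds5b-KO libraries. The lines thus lay on opposite sides of WT, and the 9 other Pds5a-KO libraries, at -0.24 to -0.18, lay with their own clone. The shift ran along the whole chromosome: split into 4 equal runs of tested genes from its start to its end, the medians were -0.53, -0.46, -0.52 and -0.49.

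**Figure D1:**
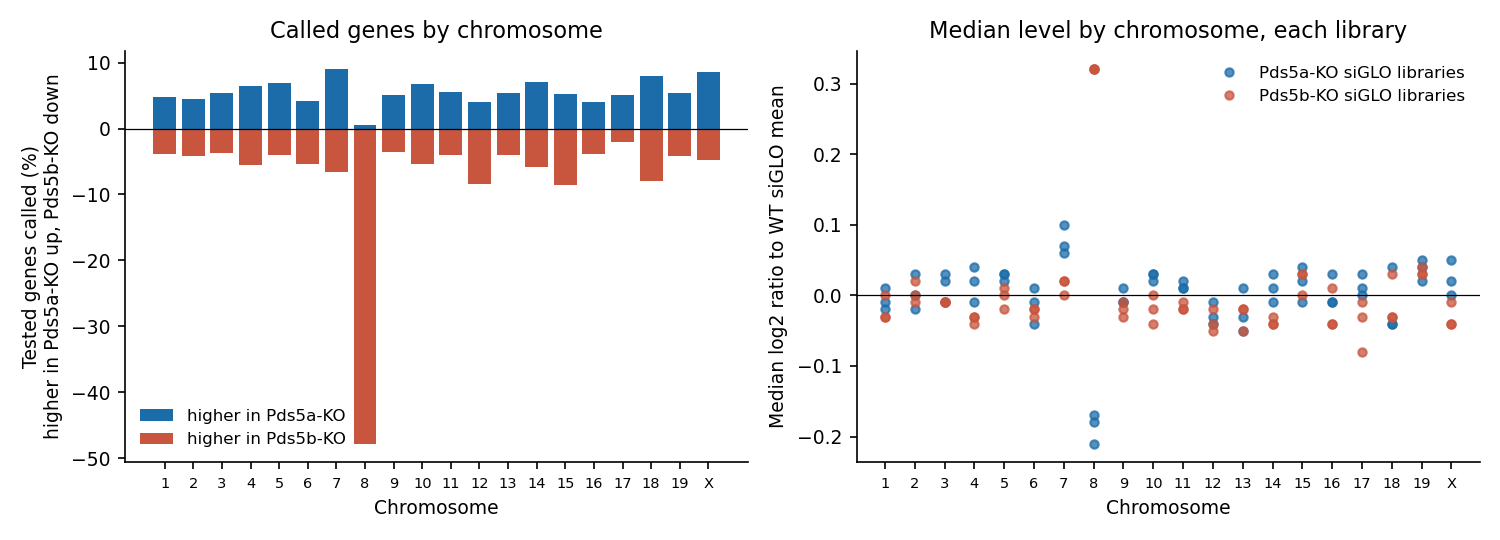
The left panel plots the percentage of tested genes called on each chromosome, higher in Pds5a-KO upwards and higher in Pds5b-KO downwards, and the right panel plots the median log2 ratio to the WT siGLO mean, 1 point per library (chromosome Y, with 5 tested genes, is left out). On chromosome 8 the 3 Pds5b-KO libraries lie together at 0.32 and the 3 Pds5a-KO libraries between -0.21 and -0.17, and on the other plotted chromosomes every library lies within 0.1 of WT.

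The chromosome 8 genes of highest level serve general functions. Sf3b3, a subunit of the SF3b splicing complex, had 14719, 12777 and 12994 in Pds5a-KO and 23814, 20529 and 20416 in Pds5b-KO (-0.68 ± 0.10, edgeR adjusted p = 2.44e-04). Cnot1, the scaffold of the CCR4-NOT deadenylase, differed by -0.74, and Hmgb2, a DNA-bending chromatin protein, by -0.49. Aars, which charges alanine tRNA (-0.50), and Calr, a chaperone of the endoplasmic reticulum (-0.47), completed the set. The groups did not overlap for any of these 5 genes. The 4 genes that went against the chromosome were Ddx60, an RNA helicase of the antiviral response (2.16, with 71.8, 73.1 and 109 against 25.7, 10.2 and 20.7), Slc5a5, the iodide transporter (0.86), Clgn, a testis chaperone (0.66), and Gabarapl2, an autophagy protein (0.53).

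Chromosome Y separated the lines in the other direction. All 5 of its tested genes were higher in Pds5a-KO, with a median of 4.28. Eif2s3y, the Y copy of a translation initiation subunit, had 559, 602 and 534 in Pds5a-KO and 37.5, 27.4 and 22.7 in Pds5b-KO (4.28 ± 0.17, edgeR adjusted p = 2.78e-09), while WT held 66.7 to 104. Ddx3y, an RNA helicase, had 117, 117 and 116 against 6.43, 3.05 and 6.9, and here WT, at 129 to 150, was close to Pds5a-KO. Uty, a histone demethylase homologue, had 70.8, 59 and 48.7 against 2.14, 2.03 and 1.97, with WT at 41.6 to 74.4. Uba1y and Zfy1 were near 0 in WT (1.73 to 6.77 and 0 to 0.867) and had 131, 128 and 102 and 23.6, 22.5 and 13.6 in Pds5a-KO. Pds5b-KO was therefore the lowest of the 3 genotypes for Eif2s3y, Ddx3y and Uty, and Pds5a-KO the highest for Eif2s3y, Uba1y and Zfy1. Reads shared with the X-linked copies of these genes could be counted under either copy.

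Shorter stretches of neighbouring genes also moved together. A stretch was taken where the running median of the log2 fold change over 15 genes, in order along the chromosome, was at least 0.5 in size. That rule, chosen after the values were seen, found 6 stretches on chromosomes 4, 7, 12 and 15. They hold values already used to choose them, so they are described without a test.

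The end of chromosome 7 was in 3 blocks. From Zfp511 to Athl1 (chr7:140036390-140947664), 9 of 15 tested genes were called, all higher in Pds5b-KO, with a median of -0.69. From Hras1 to Ap2a2 (chr7:141189934-141633011), 17 of 24 were called, again all higher in Pds5b-KO, with a median of -0.79. From Mob2 to Tpcn2 (chr7:142008517-145284011) the direction turned, and 26 of 36 tested genes were called, all higher in Pds5a-KO, with a median of 1.02. In all 3 blocks Pds5b-KO was the line away from WT: its libraries stood at 0.97 to 1.04 over WT in the middle block and at -0.87 to -0.76 in the last, where Pds5a-KO stood at 0.04 to 0.16 and at 0.09 to 0.17. Hras1, the small GTPase, had 1391, 1419 and 1382 in Pds5a-KO and 2266, 2157 and 2303 in Pds5b-KO, with WT at 1067 to 1136. Ctsd, a lysosomal protease of the last block, had 4525, 4941 and 5079 against 2212, 2267 and 2591, with WT at 4516 to 4772. Hras1 and Ctsd are given as examples chosen after their values were seen.

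On chromosome 15 it was Pds5a-KO that stood away from WT. From Foxred2 to Dmc1 (chr15:77940522-79605159), 27 of 37 tested genes were called, all higher in Pds5b-KO, with a median of -0.88. The Pds5a-KO libraries stood at -0.76, -0.78 and -0.77 against WT and the Pds5b-KO libraries at 0.14, 0.10 and 0.07. The 9 other Pds5a-KO libraries lay between -0.89 and -0.67. Eif3d, a subunit of translation initiation factor 3 chosen here as an example, had 4843, 4501 and 4309 in Pds5a-KO and 9092, 7902 and 8078 in Pds5b-KO, with WT at 7684 to 7929. A stretch of chromosome 4 from Rpl22 to A430005L14Rik (chr4:152324436-153961925) did the same over 5 tested genes, 3 of them called (median -0.67). A stretch of chromosome 12 from Cep170b to Pacs2 (chr12:112721514-113074401) was raised in Pds5b-KO over 8 tested genes, 6 of them called (median -0.84), with Pds5b-KO at 0.68 to 0.80 over WT.

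**Figure D2:**
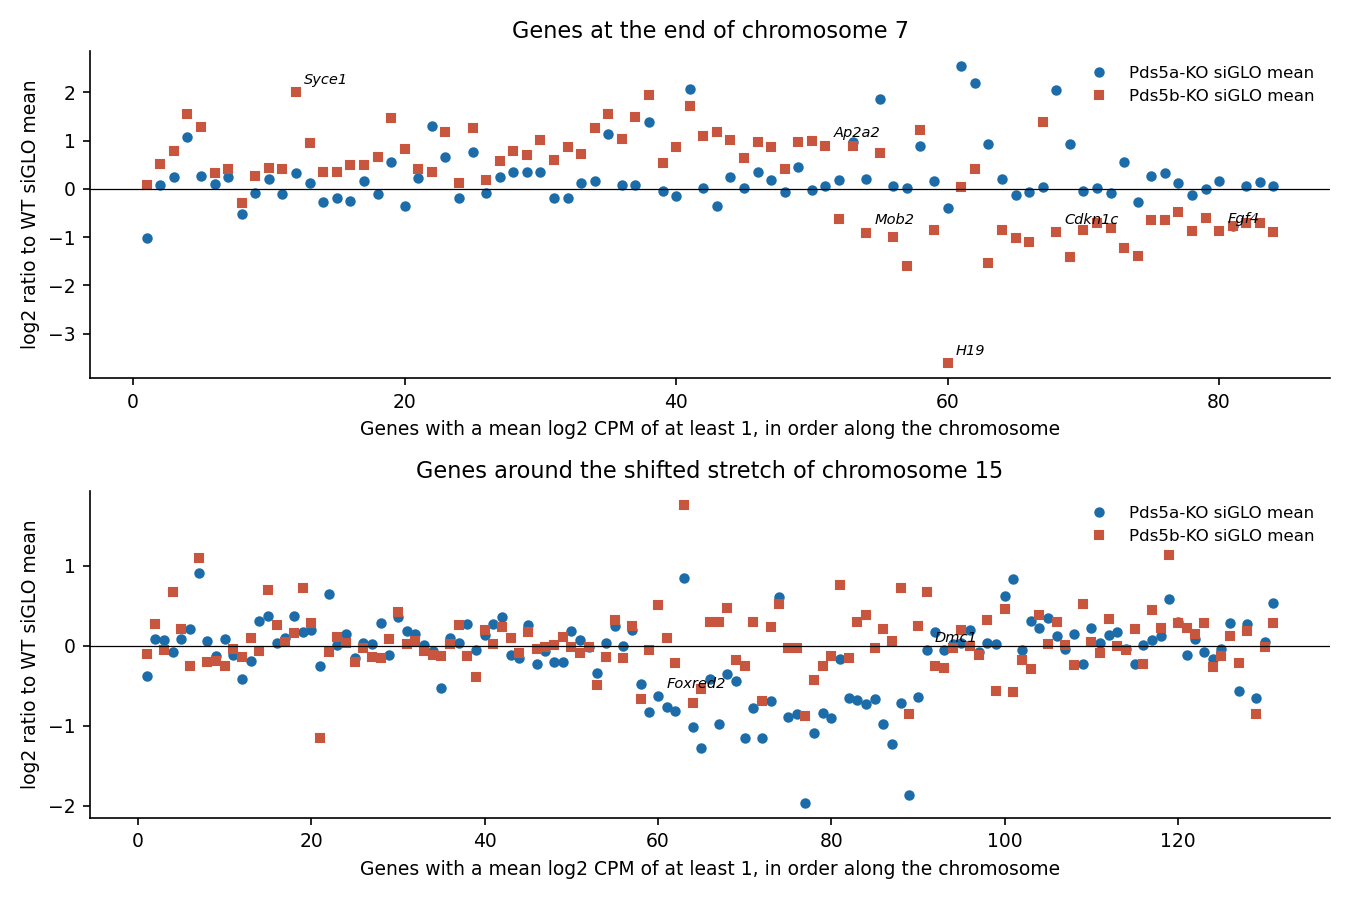
Each point is 1 gene in order along the end of chromosome 7 (upper panel) and around the shifted stretch of chromosome 15 (lower panel), plotted as the log2 ratio of the mean of 3 Pds5a-KO (circles) or Pds5b-KO (squares) libraries to the WT siGLO mean. On chromosome 7 nearly all squares lie above 0 as far as Ap2a2 and most lie below 0 from Mob2 on, and on chromosome 15 most circles fall below 0 from Foxred2 to near Dmc1.

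Chromosomes 8 and Y and the 6 stretches held 881 tested genes (6.24%) and 456 called genes (25.2% of the calls). Outside them, 1354 of 13241 tested genes were called (10.2%), 761 higher in Pds5a-KO and 593 higher in Pds5b-KO, so that the larger side changed from Pds5b-KO to Pds5a-KO. Only the RNA counts were used here, and DNA copy number in these clones was not tested. Where a gene named below lies in one of these regions, this is said.

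The genes that differed most were spread over many functions. Higher in Pds5a-KO, Klhl13, an adaptor of a CUL3 ubiquitin ligase on chromosome X, had 13566, 13206 and 14231 against 1553, 1529 and 1632 (3.12 ± 0.09, edgeR adjusted p = 4.81e-11), and WT, at 2095 to 2581, was near Pds5b-KO. Khdc3, a component of the maternal complex of the egg and early embryo, had 1245, 1191 and 1178 against 152, 141 and 131 (3.09 ± 0.11, adjusted p = 5.51e-10), with WT between the lines at 676 to 789. The 9 other Pds5a-KO libraries, however, held 446 to 800 of Khdc3 and 11019 to 14273 of Klhl13, so that of these genes Klhl13 stayed well above WT in that clone under every siRNA and Khdc3 did not. C330008G21Rik on chromosome 2 had 133, 150 and 177 against 6.43, 2.03 and 6.9 (4.87), Efhc2 on chromosome X differed by 3.72, AI662270 by 3.20 and Pnma5 by 2.53.

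The genes with the largest differences towards Pds5b-KO were likewise mixed. Scn3a, a voltage-gated sodium channel, had 17.4, 14 and 12.7 in Pds5a-KO and 174, 178 and 148 in Pds5b-KO (-3.49 ± 0.23, edgeR adjusted p = 6.22e-07), with WT at 121 to 150. It was thus Pds5a-KO that stood away from WT. Slc15a2, a transporter of small peptides, had 4.11, 13.1 and 12.7 against 84.7, 160 and 113 (-3.55), with WT at no more than 22.6, so that here it was Pds5b-KO. Slc6a14, a transporter of amino acids, differed by -2.54, Ano3, of the anoctamin family, by -1.97, and Myh3, the embryonic myosin heavy chain, by -1.96. G530011O06Rik (-2.48) and Gm5039 (-2.11) are unnamed loci.

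**Figure D3:**
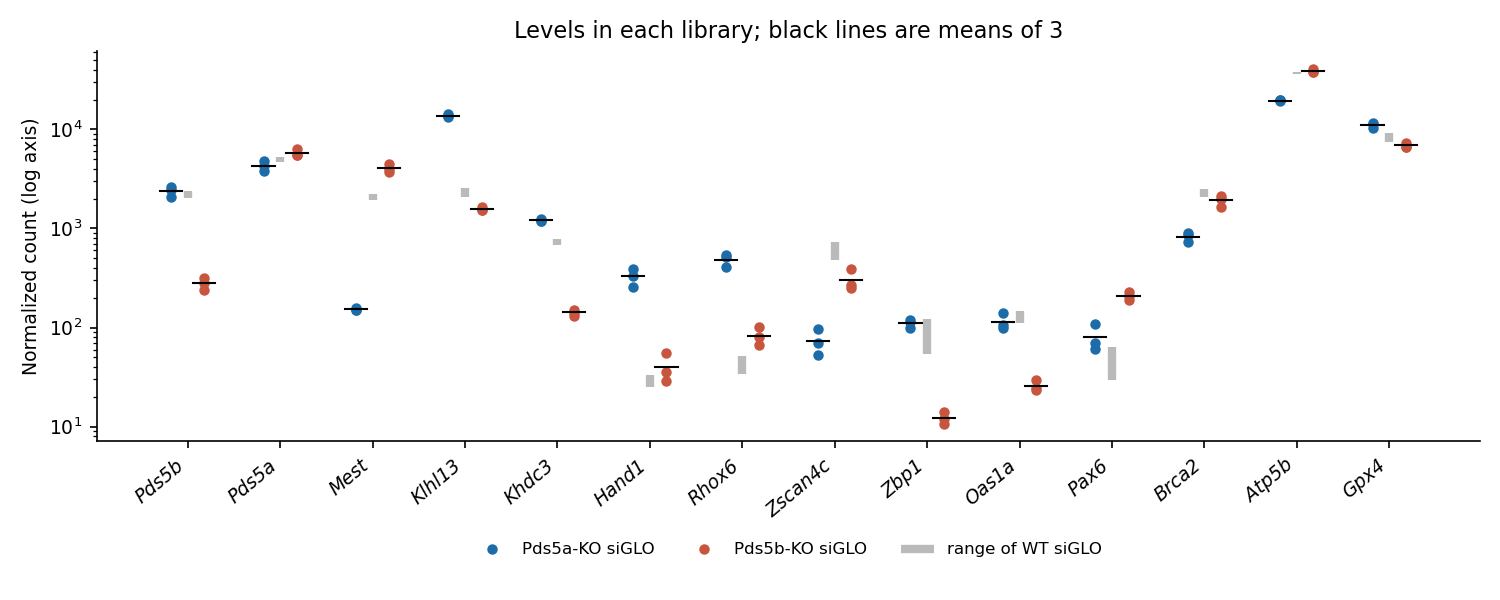
Normalized counts on a log axis of 14 genes in the 3 Pds5a-KO (blue) and 3 Pds5b-KO (red) siGLO libraries, with black lines at the means and grey bars for the range of the 3 WT siGLO libraries. Zbp1 and Oas1a are low in Pds5b-KO alone, Brca2, Atp5b and Mest are low in Pds5a-KO, and Hand1 and Klhl13 are high in Pds5a-KO.

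Imprinted genes, which are read from 1 parental allele, included some of the largest differences of the contrast. Of 56 tested, 11 were higher in Pds5a-KO and 6 in Pds5b-KO (30.4%, against 12.8% of all tested genes), with a median of 0.18. Mest, a paternally expressed hydrolase on chromosome 6, had 149, 158 and 152 in Pds5a-KO and 4510, 3942 and 3747 in Pds5b-KO (-4.73 ± 0.11, edgeR adjusted p = 5.67e-12). WT, at 1953 to 2223, lay between, so that Mest was below WT in Pds5a-KO and above it in Pds5b-KO. Peg13, a paternally expressed non-coding RNA on chromosome 15, followed the same order, with 2.05, 0.937 and 0 against 87.9, 93.5 and 76 and WT at 15.9 to 23.4. Its 3 Pds5a-KO libraries held too few reads for a fold change. Sfmbt2, a paternally expressed Polycomb-family gene on chromosome 2, had 2333, 2533 and 2763 against 555, 605 and 584 (2.13 ± 0.09, adjusted p = 6.08e-09), with WT, at 539 to 585, at the level of Pds5b-KO.

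Of the 17 called imprinted genes, 10 lay in the shifted regions, 9 of them in the Mob2 to Tpcn2 block of chromosome 7. Outside the regions 2 were higher in Pds5a-KO and 5 in Pds5b-KO of 44 tested, with a median of 0.04. In the block, Cdkn1c, a maternally expressed inhibitor of the cell cycle (chr7:143458339-143461059), had 1657, 1744 and 1606 against 235, 193 and 221 (2.95 ± 0.11, edgeR adjusted p = 6.03e-10), with WT at 353 to 476. Phlda2, a maternally expressed regulator of placental growth, had 2624, 2465 and 2181 against 402, 492 and 541 (2.34), with WT at 1085 to 1478. H19, a maternally expressed non-coding RNA, had 64.7, 101 and 108 against 8.58, 8.13 and 9.86 (3.35), with WT at 114 to 123. For Cdkn1c both lines were away from WT, on opposite sides, whereas for H19 only Pds5b-KO was far below it. Igf2, the paternally expressed growth factor beside H19, had 3744, 7780 and 9455 against 840, 1354 and 1329 and was not called (adjusted p = 0.0183). Kcnq1ot1, the paternal non-coding RNA of the Cdkn1c domain, had 70.8, 58.1 and 155 against 219, 196 and 249 (adjusted p = 0.0201).

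Genes of the trophoblast, the outer lineage that forms the placenta, were among the groups with the largest median difference. Of 21 tested, 7 were higher in Pds5a-KO and 1 in Pds5b-KO (38.1%), with a median of 1.41 beside 0.01 over all genes. Hand1, a transcription factor of trophoblast giant cells, had 259, 334 and 391 in Pds5a-KO and 54.7, 35.6 and 28.6 in Pds5b-KO (3.05 ± 0.23, edgeR adjusted p = 3.36e-06). WT held 25.1 to 33.4, so that for Hand1 Pds5a-KO alone was high. Summed over the 24 genes of the list, counts were 26564, 54566 and 58143 in Pds5a-KO and 18687, 24117 and 24104 in Pds5b-KO. That sum was 9066 to 10105 in WT, so that by it both lines were above WT. The X-linked homeobox genes Rhox6 (411, 539 and 510 against 101, 66.1 and 79.9), Rhox5 (2005, 1396 and 1360 against 408, 289 and 291) and Rhox9 (278, 308 and 276 against 85.8, 45.7 and 53.3) differed by 2.57, 2.27 and 2.23. These are neighbours of one gene cluster with similar sequences, and reads could be shared between them. Ascl2, a factor needed for the placenta that also lies in the chromosome 7 block, differed by 2.44.

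Not every trophoblast gene followed. Cdx2, which specifies the lineage, was the 1 gene higher in Pds5b-KO, with 30.8, 38.4 and 42.8 against 72.9, 82.3 and 77.9 (-1.05, edgeR adjusted p = 0.00464) and WT at 4.33 to 13.4, so that both knockouts were above WT. Eomes, another early factor, did not pass the test (-0.28, adjusted p = 0.217). The keratin genes were split by Pds5a-KO replicate 1: Krt8 had 6155, 18297 and 18038 against 2845, 5023 and 5377 (1.68, adjusted p = 0.0924), and Krt18 had 5358, 14692 and 14147 against 1978, 3595 and 3731 (adjusted p = 0.0638). Without that replicate 12 trophoblast genes were higher in Pds5a-KO and 1 in Pds5b-KO, and without Pds5b-KO replicate 2 the numbers were 5 and 0.

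The 2-cell-like genes moved the other way. These genes are active in the embryo just after its first cleavage and in a small, changing fraction of mESCs in culture. Of 15 tested, 9 were higher in Pds5b-KO and 0 in Pds5a-KO (60.0%), with a median of -1.79, and all 15 had a negative log2 fold change. No gene of the list passed an unadjusted p under 0.05 in the direction of Pds5a-KO in edgeR, nor the DESeq2 test, which called 8 higher in Pds5b-KO. Zscan4c, of a family that acts on telomeres in this state, had 97.5, 70.2 and 52.5 in Pds5a-KO and 393, 248 and 268 in Pds5b-KO (-2.05 ± 0.24, edgeR adjusted p = 9.43e-05). WT held 486 to 725, so that both knockouts were below it and Pds5a-KO was the lower. Zscan4f (-1.96), Zscan4a (-1.76), Zscan4b (-1.99), Zscan4d (-1.79), Zscan4e (-1.89), Usp17le (-2.28), Usp17ld (-2.32) and Tcstv3 (-2.78) completed the called genes. In the 9 other Pds5a-KO libraries Zscan4c ran from 39 to 602, so that its level in this clone was not fixed. In bulk RNA, fewer cells in that state and less RNA per cell cannot be told apart.

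The Zscan4 genes lie on chromosome 7 within a cluster of near-identical copies, and their called differences are not independent of one another. Their likeness is seen in the RefSeq promoters (GRCm38.p6, 300 bases that span the transcription start). The Zscan4b, Zscan4c, Zscan4d and Zscan4f promoters share an unbroken run of 55 bases, in capitals here for Zscan4c (chr7:11005495-11005794, plus strand) and Zscan4d (chr7:11166099-11166398, minus strand). The run begins at base 195 in Zscan4c and at base 184 in Zscan4d. Reads from one copy could have been counted under another.
Zscan4c: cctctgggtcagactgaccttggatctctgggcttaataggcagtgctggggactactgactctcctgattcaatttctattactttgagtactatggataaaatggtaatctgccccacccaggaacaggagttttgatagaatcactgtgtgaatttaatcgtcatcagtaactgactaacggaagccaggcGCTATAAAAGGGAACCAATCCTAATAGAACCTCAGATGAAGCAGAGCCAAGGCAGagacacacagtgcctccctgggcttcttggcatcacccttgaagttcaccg
Zscan4d: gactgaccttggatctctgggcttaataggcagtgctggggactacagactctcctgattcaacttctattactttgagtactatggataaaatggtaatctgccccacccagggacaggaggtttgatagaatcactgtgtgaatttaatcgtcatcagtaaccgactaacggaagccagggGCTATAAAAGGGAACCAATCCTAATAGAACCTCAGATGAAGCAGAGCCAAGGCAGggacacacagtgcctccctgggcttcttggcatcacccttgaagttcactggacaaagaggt

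Interferon-stimulated and antiviral genes, which cells raise on sensing foreign nucleic acid, were higher in Pds5a-KO where they differed. Of 38 tested, 11 were higher in Pds5a-KO and 0 in Pds5b-KO (28.9%), with a median of 0.53. At an unadjusted p under 0.05 in edgeR, 23 were higher in Pds5a-KO and 1 in Pds5b-KO, and DESeq2 called 12 and 1. The count of 11 fell to 7 without Pds5a-KO replicate 2, Pds5a-KO replicate 3 or Pds5b-KO replicate 2. Zbp1, a sensor of Z-form nucleic acid, had 114, 118 and 100 in Pds5a-KO and 10.7, 14.2 and 11.8 in Pds5b-KO (3.16 ± 0.25, edgeR adjusted p = 3.36e-06). WT held 54.6 to 122, so that Pds5b-KO was the line outside the WT range.

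Levels below WT in Pds5b-KO were also found for oligoadenylate synthetase genes and the immunoproteasome. Oas1a had 98.5, 139 and 105 against 24.7, 23.4 and 29.6 (2.13), with WT at 112 to 148. Oasl2 had 224, 225 and 224 against 63.2, 77.3 and 74 (1.65, edgeR adjusted p = 1.38e-05), with WT at 93.6 to 238. Psmb8, a subunit of the immunoproteasome, had 125, 213 and 171 against 33.2, 47.8 and 43.4 (2.03), and Ifi35 differed by 1.59. For Oas1a, Oasl2, Psmb8 and Ifi35 every Pds5b-KO library was below the lowest WT library, whereas Cxcl10, a chemokine named for its promoter, was above WT in Pds5a-KO, with 74.9, 100 and 147 against 26.8, 38.6 and 45.4 and WT at 32.9 to 40.1.

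Interferon regulatory factors bind repeats of the GAAA kind. The letters GAAA, any 2 bases and GAAA again, sought on both strands with overlapping matches allowed, were in the RefSeq promoters of 4 of the 9 called interferon genes that had an entry (44.4%) and of 10 of 22 that were not called (45.5%). They were in 353 of 10362 promoters of tested genes (3.41%), in 1131 of 32851 promoters of the whole table (3.44%) and in 42 of 589 promoters of genes called higher in Pds5a-KO (7.13%). Called and uncalled interferon genes thus held the letters about equally often. The 3 promoters printed here, with matches in capitals, are those of Oas1a (chr5:120907476-120907775, minus strand, 2 overlapping matches), Cxcl10 (chr5:92348840-92349139, minus strand) and Ifit1 (chr19:34640639-34640938, plus strand, 2 matches read from the opposite strand). They were chosen after the values were seen, and a match is a description, not a bound site.
Oas1a: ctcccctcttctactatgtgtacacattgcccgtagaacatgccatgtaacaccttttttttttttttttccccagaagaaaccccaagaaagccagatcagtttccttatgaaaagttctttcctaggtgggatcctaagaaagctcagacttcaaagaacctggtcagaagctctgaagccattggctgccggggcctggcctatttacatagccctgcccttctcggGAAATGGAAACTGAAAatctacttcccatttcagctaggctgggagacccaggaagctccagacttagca
Cxcl10: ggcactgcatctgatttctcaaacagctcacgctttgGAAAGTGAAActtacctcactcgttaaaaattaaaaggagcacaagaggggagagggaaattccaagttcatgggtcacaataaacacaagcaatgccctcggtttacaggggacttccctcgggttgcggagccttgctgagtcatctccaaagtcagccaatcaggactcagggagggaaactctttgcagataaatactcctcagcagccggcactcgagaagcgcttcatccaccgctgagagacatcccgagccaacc
Ifit1: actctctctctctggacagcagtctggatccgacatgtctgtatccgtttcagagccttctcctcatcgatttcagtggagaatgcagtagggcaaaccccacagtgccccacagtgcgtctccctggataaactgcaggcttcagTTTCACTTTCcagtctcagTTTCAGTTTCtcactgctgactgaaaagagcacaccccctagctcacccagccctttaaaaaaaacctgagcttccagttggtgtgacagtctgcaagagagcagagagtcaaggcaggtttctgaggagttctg

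The core of the pluripotency network did not pass the test, while several genes of the naive state did. Pou5f1 (24901, 22842 and 21439 against 21369, 24144 and 26747) and Sox2 both stood at -0.06 on the log2 scale (adjusted p from edgeR 0.679 and 0.648), and the groups overlapped. Nanog had 5716, 6480 and 6755 against 4704, 5576 and 5505 (0.26, adjusted p = 0.0556), and all 6 values were below the WT range of 9932 to 11043. Of 22 naive pluripotency genes tested, 6 were higher in Pds5a-KO and 1 in Pds5b-KO (31.8%, median 0.23), and without Pds5b-KO replicate 2 the numbers were 4 and 0. Fgf4, a growth factor secreted by mESCs and a member of the chromosome 7 block, had 6002, 5680 and 5534 against 2856, 2685 and 2962 (1.02, adjusted p = 3.36e-06). Sox15 had 495, 657 and 595 against 169, 228 and 222 (1.49), Bmp4, a ligand that restrains neural fate, differed by 1.09 and Pecam1 by 0.45. Spic, a transcription factor of the naive state, had 15.4, 27.2 and 23.4 against 1.07, 1.02 and 0.986, too few reads in Pds5b-KO for a fold change. Nr5a2, a nuclear receptor that activates Pou5f1, was the 1 gene higher in Pds5b-KO (-0.45). In the general pluripotency list 2 of 15 tested genes were called (13.3%, near the 12.8% of all genes), both higher in Pds5b-KO, Utf1 (-0.54) among them. In the direction of Pds5a-KO 0 were called, where edgeR gave 2 at an unadjusted p under 0.05 and DESeq2 called 1. Without Pds5a-KO replicate 1 edgeR called 1 of the list higher in Pds5a-KO and 3 in Pds5b-KO, and without Pds5a-KO replicate 2 or Pds5b-KO replicates 2 or 3 it called 0 and 1.

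Called genes of the neuroectoderm list were higher in Pds5b-KO, except that allowing for transcript length gave 1 call higher in Pds5a-KO beside 3. Of 13 neuroectoderm genes tested, 3 were called (23.1%), all higher in Pds5b-KO, with a median of -0.47, and 0 were called higher in Pds5a-KO, where edgeR gave 2 at an unadjusted p under 0.05 and DESeq2 called 1. Sox1, a factor of the neural plate on chromosome 8, had 172, 103 and 99.3 against 1068, 758 and 647 (-2.73 ± 0.26, edgeR adjusted p = 1.79e-04), a difference well beyond the chromosome's median of -0.49. WT, at 281 to 315, lay between the lines. Pax6, a factor of eye and forebrain, had 108, 69.3 and 61.3 against 208, 189 and 226 (-1.39, adjusted p = 3.32e-04), with WT at 29.3 to 63.3. Olig2 differed by -0.48, and Nes, the neural filament gene, was not called (-0.47, adjusted p = 0.0353).

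Of 21 primitive endoderm genes tested, edgeR called 0, with 2 higher in Pds5a-KO and 4 in Pds5b-KO at an unadjusted p under 0.05, and DESeq2 called 2 and 1. Without Pds5a-KO replicate 1 edgeR called 2 higher in Pds5a-KO and 3 in Pds5b-KO, and without Pds5b-KO replicate 1 it called 1 and 0. Gata6 had 280, 141 and 135 against 310, 162 and 171 (-0.21, edgeR adjusted p = 0.712) and Sox17 had 148, 70.2 and 49.6 against 154, 96.6 and 104 (-0.41, adjusted p = 0.447). In both lines replicate 1 held the highest value of both genes, and the groups overlapped. Of 18 formative and primed genes, 22.2% were called. The epiblast factors Pou3f1 (0.93) and Otx2 (0.92) were higher in Pds5a-KO and Etv4 (-0.51) and Sox4 (-0.42) in Pds5b-KO. The counts were 2 and 0 without Pds5a-KO replicate 2, 1 and 0 without Pds5b-KO replicates 1 or 2, and 1 and 1 without Pds5b-KO replicate 3. Among 16 tested Hox genes, Hoxa5 (-2.18) and Hoxa3 (-1.73) were called (12.5%, near the 12.8% of all genes), both higher in Pds5b-KO at low levels. Without Pds5a-KO replicate 3 or Pds5b-KO replicate 1, 0 Hox genes were called. The count was 1 without Pds5a-KO replicate 2 or Pds5b-KO replicate 2, and 4 without Pds5a-KO replicate 1.

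The FGF and ERK list, which carries the signal that drives mESCs out of the naive state, was called in both directions. Of 28 tested, 3 were higher in Pds5a-KO and 6 in Pds5b-KO (32.1%, median -0.23). The calls were 16 without Pds5a-KO replicate 1, 4 without Pds5a-KO replicate 2, and 5 without Pds5a-KO replicate 3 or Pds5b-KO replicates 1 or 2. Among ligands, Fgf4 was higher in Pds5a-KO and Fgf17 in Pds5b-KO, the latter with 417, 539 and 452 against 784, 969 and 1005 (-0.97, edgeR adjusted p = 1.22e-04). Among receptors, Fgfr2 was higher in Pds5a-KO, with 415, 513 and 485 against 265, 267 and 195 (0.96) and WT at only 51.9 to 85.8, while Fgfr1, on chromosome 8, was higher in Pds5b-KO (-0.53). Among targets, Spry2, which feeds back on the signal, and Etv1, an ETS factor, were higher in Pds5b-KO (-0.70 and -0.86), and Dusp5, an ERK phosphatase, was higher in Pds5a-KO (0.59).

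Genes of glutathione and xenobiotic metabolism, which conjugate and reduce toxic compounds, formed one of the largest sets higher in Pds5a-KO. Of 41 tested, 13 were higher in Pds5a-KO and 4 in Pds5b-KO (41.5%), with a median of 0.31. Gstp2 had 271, 303 and 301 in Pds5a-KO and 103, 119 and 96.7 in Pds5b-KO (1.46 ± 0.15, edgeR adjusted p = 1.92e-05), with WT between them at 174 to 247. Gstt1 had 191, 204 and 132 against 42.9, 57.9 and 69 (1.63), and Gstm1 had 781, 731 and 805 against 369, 471 and 412 (0.89). The Gst genes lie in clusters of similar copies, and reads could be shared within a cluster. Gpx4, which reduces lipid peroxides, had 11476, 11532 and 10457 against 6649, 6624 and 7380 (0.70, adjusted p = 9.05e-05), with WT at 7492 to 9255. Of the 4 genes higher in Pds5b-KO, Gsr, the glutathione reductase (-0.79), Nqo1 (-0.91) and Hmox1 (-0.65) lie on chromosome 8 and Aldh1l2 (-0.92) on chromosome 10, so that outside the shifted regions the counts were 13 and 1.

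In lipid synthesis the called sterol genes were higher in Pds5a-KO. Of 37 tested genes, 9 were higher in Pds5a-KO and 2 in Pds5b-KO (29.7%, median 0.18). Leaving out Pds5a-KO replicate 2 lowered the calls to 4, and leaving out Pds5a-KO replicate 3 or Pds5b-KO replicates 1 or 2 lowered them to 6. Of the sterol genes, Dhcr7, which makes cholesterol from its last precursor and lies in the chromosome 7 block, differed by 0.91. Fdps had 3996, 4693 and 4834 against 2661, 2974 and 3365 (0.59, edgeR adjusted p = 0.00121), and Fdft1, which commits the pathway to sterols, differed by 0.56. Of the 9, 8 belong to sterol synthesis and its control and 1, Fads2 (0.48), desaturates fatty acids. The 2 genes higher in Pds5b-KO make fatty acids: Acaca, of the committing step, differed by -0.71, and Fasn, the synthase itself, had 9627, 11318 and 11596 against 17695, 17144 and 14661 (-0.61), with WT at 9689 to 11110, so that Pds5b-KO was the line away from WT. When transcript length was allowed for, the counts of the list were 10 and 1, and Fasn was no longer called.

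In DNA repair, Brca2 stood out. Of 46 tested genes of homologous recombination and the Fanconi pathway, 5 were higher in Pds5b-KO and 0 in Pds5a-KO (10.9%, near the 12.8% of all genes), with a median of -0.08. At an unadjusted p under 0.05 edgeR gave 17 and 0, and DESeq2 called 6 and 0. Brca2, which acts in the repair of broken DNA and lies near Pds5b on chromosome 5 (chr5:150522297-150570147), had 867, 729 and 895 in Pds5a-KO and 2152, 1999 and 1652 in Pds5b-KO (-1.22 ± 0.11, edgeR adjusted p = 1.14e-05). WT held 2058 to 2513, so that it was Pds5a-KO, the line in which the nearby Pds5b was not targeted, that was low. The others were Fanca on chromosome 8 (-1.08), Dmc1 in the chromosome 15 stretch (-0.73), Rad54b (-0.42) and Rad50 (-0.39). Without Pds5a-KO replicate 2 or Pds5b-KO replicates 1 or 2, 3 were called.

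Germline and meiosis genes were called in both directions, 7 higher in Pds5a-KO and 5 in Pds5b-KO of 36 tested (33.3%, median -0.02). Syce1, a protein of the synaptonemal complex in the first chromosome 7 block, had 241, 236 and 203 against 845, 638 and 704 (-1.68, edgeR adjusted p = 2.68e-06), with WT at 151 to 244. Hormad2, of the meiotic chromosome axis, had 25.7, 38.4 and 31.1 against 111, 140 and 148 (-2.06). Tdrd12, of the piRNA pathway that silences transposons, had 1548, 1722 and 1660 against 659, 724 and 829 (1.16), and Rpl10l, the ribosomal protein of male germ cells, differed by 0.80.

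The contrast also followed transcript length. With the genes split into 8 equal bins by their longest annotated transcript, the median log2 fold change ran from 0.22 in the shortest bin through 0.11, 0.09, 0.04, 0.01, -0.04 and -0.10 to -0.22 in the longest. In the shortest bin 152 genes were called higher in Pds5a-KO and 40 in Pds5b-KO, and in the longest bin 38 and 232. Against WT, the trend was mainly in Pds5b-KO and was unequal among its libraries: the shortest bin stood at -0.31, -0.20 and -0.04 in them and at 0.05, 0.08 and -0.04 in Pds5a-KO. The longest bin stood at 0.27, 0.21 and 0.08 in Pds5b-KO and at -0.02, -0.12 and 0.03 in Pds5a-KO. A fit with a length offset, added after the data were seen, brought all bin medians to between 0 and 0.03 and called 1864 genes, sharing 82.7% of the calls above.

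**Figure D4:**
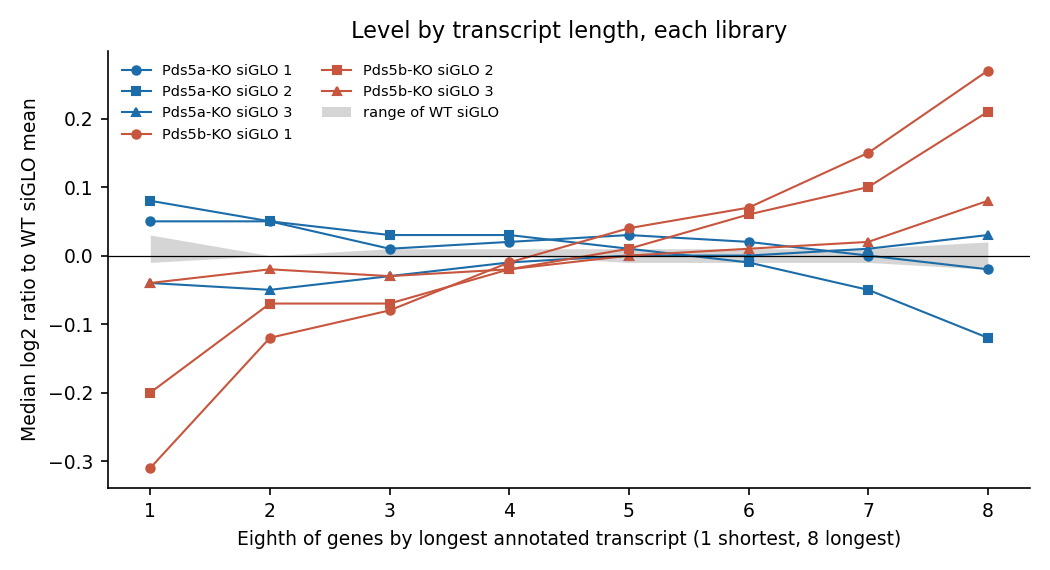
Median log2 ratio to the WT siGLO mean in each eighth of the genes by transcript length, 1 line per library, with the range of the 3 WT libraries in grey. Pds5b-KO replicate 1 runs from -0.31 in the shortest genes to 0.27 in the longest, Pds5b-KO replicate 3 only from -0.04 to 0.08, and the Pds5a-KO lines stay between -0.12 and 0.08.

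The lists of short genes moved with this trend. Of 90 tested oxidative phosphorylation genes, 7 were higher in Pds5a-KO and 1 in Pds5b-KO (8.89%), with a median of 0.28 that became 0.09 with the length offset, where 2 and 2 were called. The 7 included Ndufv3 (0.57), Ndufa11 (0.49) and Ndufs8 (0.49) of complex I and Sdhb (0.47) of complex II, and their number ran from 0 without Pds5a-KO replicate 2 or Pds5b-KO replicate 2 to 25 without Pds5b-KO replicate 3. The 86 cytosolic ribosomal protein genes had 3 and 2 called (5.81%) and a median of 0.20, or 0.04 with the offset. Without Pds5b-KO replicate 3, 15 and 2 were called. Atp5b, the catalytic subunit of the mitochondrial ATP synthase, went against its list, with 19706, 19702 and 19250 in Pds5a-KO and 38379, 37739 and 41218 in Pds5b-KO (-1.0 ± 0.08, edgeR adjusted p = 5.03e-06). WT held 36570 to 37979 and the 9 other Pds5a-KO libraries 16484 to 19632, so that Atp5b was low in the Pds5a-KO clone under every siRNA. Of the groups above, the 2-cell-like and trophoblast counts were the same with the offset, the interferon counts became 14 and 2, and the glutathione median fell from 0.31 to 0.13 with 12 and 4 called. The FGF and ERK counts became 3 and 4, and the germline and meiosis counts 5 and 4.

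**Figure D5:**
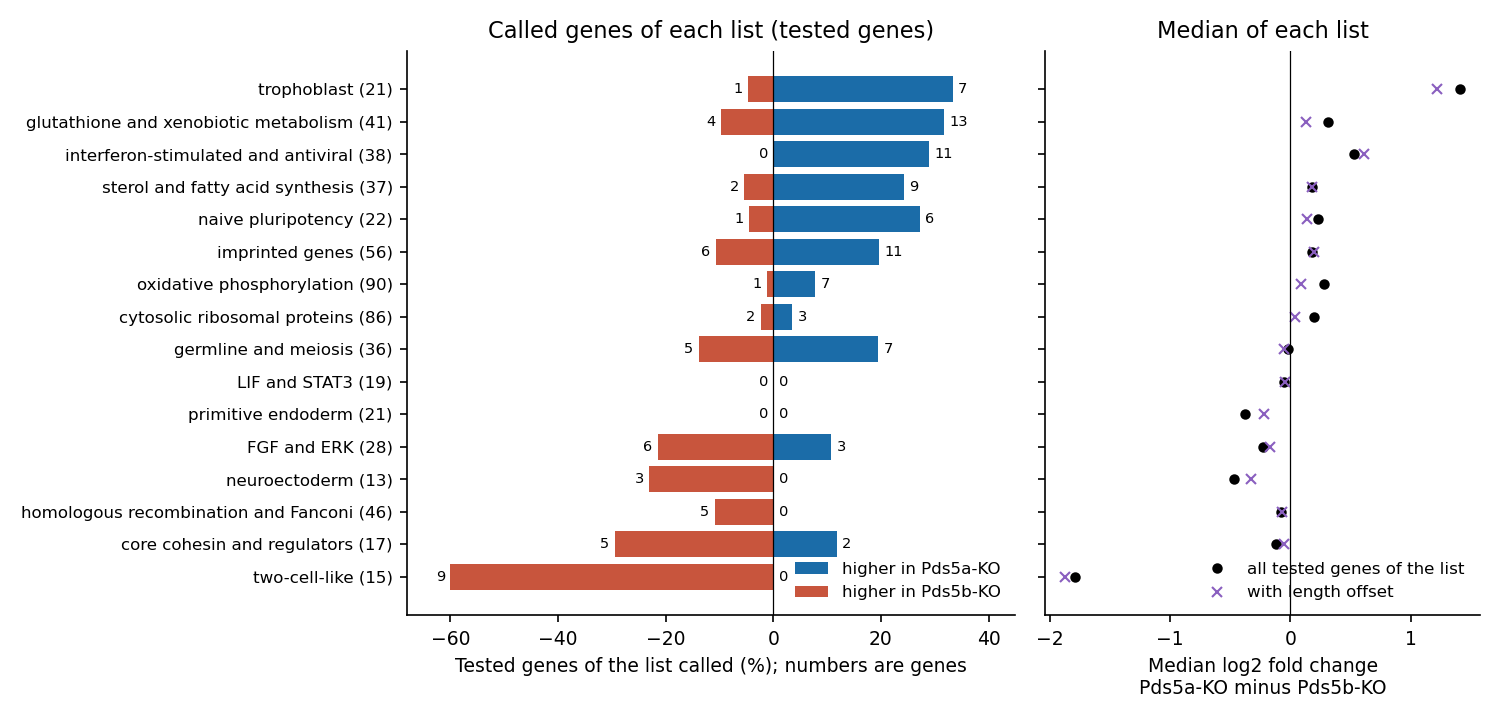
The left panel plots, for 16 of the 48 gene lists, the percentage of tested genes called higher in Pds5a-KO (right) and in Pds5b-KO (left), with numbers of genes at the bars, and the right panel plots each list's median log2 fold change without (points) and with (crosses) the transcript length offset. The trophoblast median of 1.41 and the 2-cell-like median of -1.79 lie farthest apart, and the oxidative phosphorylation and ribosomal medians move to near 0 with the offset.

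Adhesion and matrix genes depended on Pds5a-KO replicate 1. Of 53 collagen, laminin and integrin genes tested, 7 were higher in Pds5a-KO and 2 in Pds5b-KO (17.0%, against 12.8% of all tested genes), and 16 and 2 without that replicate. Over all genes, leaving out that replicate raised the calls from 1810 to 2425. Lama3, a laminin chain of epithelial basement membranes, had 302, 224 and 271 against 116, 101 and 88.8 (1.38, edgeR adjusted p = 7.32e-05). Nid1 differed by 0.84, Itga7 by 1.52 and Col9a2 by 1.43, and Itgb1, the common beta chain of integrins on chromosome 8, by -0.75. The matrix counts were 3 and 1 without Pds5a-KO replicates 2 or 3 or Pds5b-KO replicate 2, and 4 and 1 without Pds5b-KO replicate 3. Of 26 epithelial adhesion genes 2 and 2 were called (15.4%), or 11 and 2 without Pds5a-KO replicate 1. The epithelial counts were 1 and 1 without replicate 2 of either line and 0 and 1 without Pds5b-KO replicate 1. Of 32 actin cytoskeleton genes 3 and 1 were called (12.5%, near the 12.8% of all genes), or 13 and 2 without Pds5a-KO replicate 1. Summed fibroblast markers, which other cells in a culture could bring, were 630, 1399 and 1970 in Pds5a-KO, 738, 808 and 853 in Pds5b-KO and 1460 to 1998 in WT, and 1 of 8 was called in each direction (Thy1 0.90, Twist1 -1.02). Without Pds5a-KO replicate 1, 5 fibroblast markers were called higher in Pds5a-KO and 1 in Pds5b-KO, and without Pds5a-KO replicates 2 or 3 or Pds5b-KO replicates 2 or 3 the numbers were 0 and 1. Of 4 tested haematopoietic markers 1 was called (Cd68, 0.77; none without Pds5a-KO replicate 3 and 1 in each direction without Pds5b-KO replicate 1), and Hba-a1 was at 0 in all 6 libraries. Of 6 tested endothelial markers 1 was called (Tek, 0.75; none without Pds5a-KO replicate 3 or Pds5b-KO replicates 2 or 3), and Emcn was at 0 in all but Pds5b-KO replicate 3. The part of other cell types in the matrix and trophoblast differences was not tested.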

How the data were processed

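Poly(A) RNA of 21 mESC cultures was sequenced. The authors deposited raw read counts per gene for each library, and their processing notes name STAR, DESeq2 and mm10. The counting program, annotation and strand setting are not given in the sources used here. Genes were matched by symbol (21563 of 23412) or older symbol (1689) to GRCm38, and 160 had no match. The 6 libraries of the contrast were filtered by edgeR's filterByExpr, scaled by TMM and tested by edgeR's quasi-likelihood test (edgeR 4.0.16, R 4.3.3). In counts simulated from the fit's own model, it recovered 86% of log2 changes of 1 and 97% of changes of 2, with 8 false calls. Those counts held no replicate, length or chromosome effect, so they do not check the calls in the real libraries. SEs are the log2 fold change over the root of F. WT and the other libraries were brought to the same scale by TMM over all 21. Ratios to WT used log2(normalized count + 1) and genes whose log2 CPM averaged 1 or more.

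The members and all 48 gene lists were chosen with earlier results of these data known, so that counts over a list are descriptions. Named genes are Pds5a, Pds5b and the core cohesin list, the 15 called genes with the largest difference in each direction among those whose log2 CPM averaged 1 or more and whose lines did not overlap, up to 5 called genes per list by smallest adjusted p, the 5 of highest level on a shifted chromosome, and 7 identity markers. Others named are single calls, genes of stretches or promoters, or uncalled genes needed to describe a list, and a few genes are not reported here. Alternatives were DESeq2 1.42.0, other scalings and filters, 1 model of all libraries, a replicate block, each library left out, other thresholds and a length offset.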

Additional observations from a re-analysis of the deposited data

How the results depend on the processing

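The count of 1810 called genes (796 higher in Pds5a-KO, 1014 in Pds5b-KO, and 1442 off chromosomes 8 and Y) became 2873 in 1 model of 21 libraries, with 1457 higher in Pds5a-KO and 2442 off the 2 chromosomes. At an adjusted p under 0.05 it was 3810 (1838, 1972 and 3308), and with a size of 1 or more on the log2 scale required as well at 0.01 it was 491 (282, 209 and 448), where the Pds5a transcript, at -0.43, is no longer called. Leaving out chromosomes 8 and Y and the stretches left 593 genes higher in Pds5b-KO. Leaving out 1 library gave 889 to 2425 calls, 361 to 1233 higher in Pds5a-KO, 522 to 1192 higher in Pds5b-KO and 622 to 2049 off chromosomes 8 and Y, with Pds5b at 2.99 to 3.18 and Pds5a at -0.53 to -0.35, called only without Pds5a-KO replicate 1. The Pds5a call was also lost with the length offset (-0.19). DESeq2 called 2396 genes and kept 98.2% of the calls. Scaling within each chromosome, which takes out a shift shared by its genes, called 1398. Of 189 named called genes, 156 kept their call there and 28 lost it without a change of direction. The other 5, all on chromosome 8, came out near 0: Cenpt (0.01), Cenpn (0.08), Atp6v1b2 (0.01), Hmgb2 (0.00) and Calr (0.02). Of the same 189 genes, 138 were still called without Pds5a-KO replicate 2 or Pds5b-KO replicate 2, which leaves fewer samples. Deviations from the group means correlated at 0.392, 0.172 and 0.032 between same-numbered libraries of the lines. Between unlike numbers they ran from -0.352 to 0.288, and replicate 1 of each line was negative with replicates 2 and 3 of the other. Whether the numbers mark shared batches was not tested. A replicate block gave 2319 calls, with 98.0% of the calls above among them. Counting depth limits genes such as Peg13 and Spic, with few reads in 1 line.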

Other observations

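Of 37 Wnt pathway genes, 4 were higher in Pds5a-KO and 3 in Pds5b-KO (18.9%, against 12.8% of all tested genes). Higher in Pds5a-KO were the ligand Wnt7b (2.10), the receptor Ror1 (1.29), Dkk3 (1.33) and Ccnd1 (0.83, in the chromosome 7 block). Higher in Pds5b-KO were the receptors Fzd10 (-0.81) and Fzd5 (-0.69) and the antagonist Sfrp1 (-0.68, on chromosome 8). The Wnt counts were 9 and 4 without Pds5a-KO replicate 1, 3 and 1 without Pds5a-KO replicate 2 and 2 and 2 without Pds5b-KO replicate 2. Of 32 Myc and cyclin genes, 21.9% were called. Ccnd1 and Cdkn1c, both in the chromosome 7 block, were higher in Pds5a-KO. The 5 higher in Pds5b-KO were Ccnd2 (-0.85), Ccne2 (-0.69), Cdk6 (-0.68), Rbl1 (-0.46) and Rbl2 (-0.90, on chromosome 8). Ccnd1 had 3660, 3576 and 3305 in Pds5a-KO against 1971, 2013 and 1961, and Ccnd2 had 443, 371 and 472 against 723, 778 and 819, so that these D-type cyclins differed in opposite directions. Of 27 protocadherins, cell adhesion proteins of neurons, 3 were called (11.1%, near the 12.8% of all genes). All 3 were higher in Pds5b-KO: Pcdhga1 (-1.52), Pcdh8 (-2.54) and Pcdhgb8 (-1.37). The Pcdhga and Pcdhgb transcripts share exons, and their reads could be shared. Without Pds5a-KO replicate 1 the protocadherin counts were 1 and 4, and without Pds5a-KO replicate 2 or Pds5b-KO replicates 1 or 2 they were 0 and 1.

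Of 54 genes of axon guidance, 2 were higher in Pds5a-KO and 7 in Pds5b-KO (16.7%), with a list median of 0.09. Ntn1, a secreted cue, differed by -1.30. The axon guidance counts were 7 and 7 without Pds5a-KO replicate 1, 1 and 2 without Pds5a-KO replicate 2, 1 and 4 without Pds5a-KO replicate 3 and 1 and 3 without Pds5b-KO replicate 2. Of 343 Zfp zinc finger genes, 8 and 33 were called (median -0.11), a share slightly below the 12.8% of all genes. Outside the shifted regions the counts were 8 and 23. The Zfp counts were 4 and 12 without Pds5a-KO replicate 2, 6 and 17 without Pds5a-KO replicate 3, and 6 and 16 or 3 and 11 without Pds5b-KO replicates 1 or 2. Of 47 vesicle and lysosome genes, 7 and 5 were called (25.5%), 6 of the 12 in the shifted regions, and 3 and 3 without Pds5b-KO replicate 2. Of 43 amino acid stress genes, 1 and 5 were called (14.0%, near the 12.8% of all genes). Slc7a5 (-0.97), an amino acid transporter on chromosome 8, had the largest difference.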
